A study of Mus musculus with 4 samples.

Results

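Sema4d and 9 of its relatives and receptors were followed through the response of mouse macrophages to IL-4. The 10 genes encode 4 class 4 semaphorins (Sema4d, Sema4a, Sema4b and Sema4c), 4 plexins (Plxnb1, Plxnb2, Plxnd1 and Plxna1) and 2 neuropilins (Nrp1 and Nrp2). They were taken by gene symbol from 16403 genes listed in any library. The set was chosen by a measured value, the IL-4 over untreated ratio of Sema4d, which was the lowest of any abundant protein-coding gene, and the IL-4 values below are therefore a description without a test. The libraries came from C57BL/6 mice that were either wild-type (WT) or TIF1a-/-. TIF1a is another name of Trim24, an E3 ubiquitin ligase, and its floxed alleles were deleted with LysM-Cre, which is active in cells of the myeloid lineage. The controls were littermates. Whether they carried Cre or floxed alleles is not given in the sources used here, nor is the number of mice behind a library. All cells were peritoneal macrophages elicited with 4% thioglycolate, collected 4 days later, left to adhere for 4 h and starved in medium with 0.5% serum. Each genotype was either untreated or stimulated with IL-4 at 20 ng/mL for 6 h, which gave 4 groups of 1 library. No difference therefore has a replicate check, and every ratio compares libraries rather than conditions.

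Semaphorins are membrane-bound or secreted guidance proteins that share a sema domain. Class 4 members span the membrane, and Sema4d, also called CD100, can be shed from the cell surface. Plexins are their signalling receptors and act on small GTPases through a cytoplasmic GTPase-activating domain. Plexin-B1 and plexin-B2 bind class 4 semaphorins, plexin-A1 and plexin-D1 are best known as receptors of other classes, and neuropilins are co-receptors for secreted class 3 semaphorins and for VEGF. In immune cells Sema4d acts on B cells, dendritic cells and macrophages, and IL-4 is the classical inducer of M2, or alternative, activation.

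The libraries held 11026033 to 11250099 expected reads. Trim24 was listed at 2.55 and 1.48 FPKM in WT cells before and after IL-4, against 0.06 and 0.14 FPKM in knockout cells. Lyz2, whose locus carries the Cre, was listed at 10811 to 11289 FPKM in WT cells and 4761 to 5193 FPKM in knockout cells. Arg1, an M2 marker, went from 1.84 to 463 FPKM in WT cells and from 5.40 to 733 FPKM in knockout cells. The 6 macrophage markers summed to 3526 to 3926 FPKM and were all present. The 6 T cell markers summed to 2.29 to 3.25 FPKM and the 5 B cell markers to 4.23 to 6.52 FPKM. The WT IL-4 library stood apart in its dependence on transcript length. Over the 10532 genes that averaged 1 FPKM or more, the log2 ratio and the length of the transcript had a Spearman's rho of -0.364 for IL-4 in WT cells and 0.507 for knockout over wild-type with IL-4. In the pairs without that library it was -0.101 (IL-4 in knockout cells) and 0.123 (genotype, untreated). Semaphorin and plexin transcripts are long, from 3181 to 9045 bases here, and each ratio below is also given with this trend removed where it changes a call.

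Expression of Sema4d was examined first. Sema4d (gene ID 20354) lies on the minus strand of chromosome 13 from 51685529 to 51793678 in GRCm38. Its level was 96.7 FPKM in untreated WT cells and 10.8 FPKM after IL-4. The knockout levels were 105 FPKM untreated and 14.4 FPKM after IL-4. These levels rested on 4905, 555, 5329 and 730 expected reads. Both IL-4 libraries lay far below both untreated ones, by 8.92-fold in WT cells and 7.24-fold in knockout cells. The levels ranked knockout untreated first, then WT untreated, knockout IL-4 and WT IL-4, and no neighbours in that ranking had overlapping 95% Wilson intervals of their shares (470 to 496, 432 to 457, 61.6 to 71.2 and 45.4 to 53.6 CPM). Such intervals, like all intervals below, cover counting error only. The average length of the Sema4d transcripts that RSEM counted ranged only from 4539.7 to 4555 bases. Since these are bulk RNA values, fewer cells with Sema4d and less Sema4d RNA per cell cannot be told apart. T and B cells also carry Sema4d. Their marker sums went from 2.62 to 2.29 and from 6.52 to 5.77 FPKM with IL-4 in WT cells, and from 3.25 to 2.55 and from 5.07 to 4.23 FPKM in knockout cells. The part of such cells in the Sema4d values was not tested.

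The values that chose Sema4d were its log2 ratios of IL-4 over untreated, computed on FPKM + 0.1. They were -3.16 (95% counting interval, -3.28 to -3.03) in WT cells and -2.86 (-2.97 to -2.74) in knockout cells. Over 7457 genes averaging 5 FPKM or more the mean of both ratios put Sema4d second from the bottom. Lower still was only the small nucleolar RNA Snora75, with at most 8 reads in a library. The next genes above were Arhgap22 at a mean of -2.21 and Dio2 at -2.20, against -3.01 for Sema4d. At the lower minimum of 1 FPKM, 0.199% of the 10532 genes lay lower than Sema4d in WT cells and 0.275% in knockout cells.

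**Figure D1:**
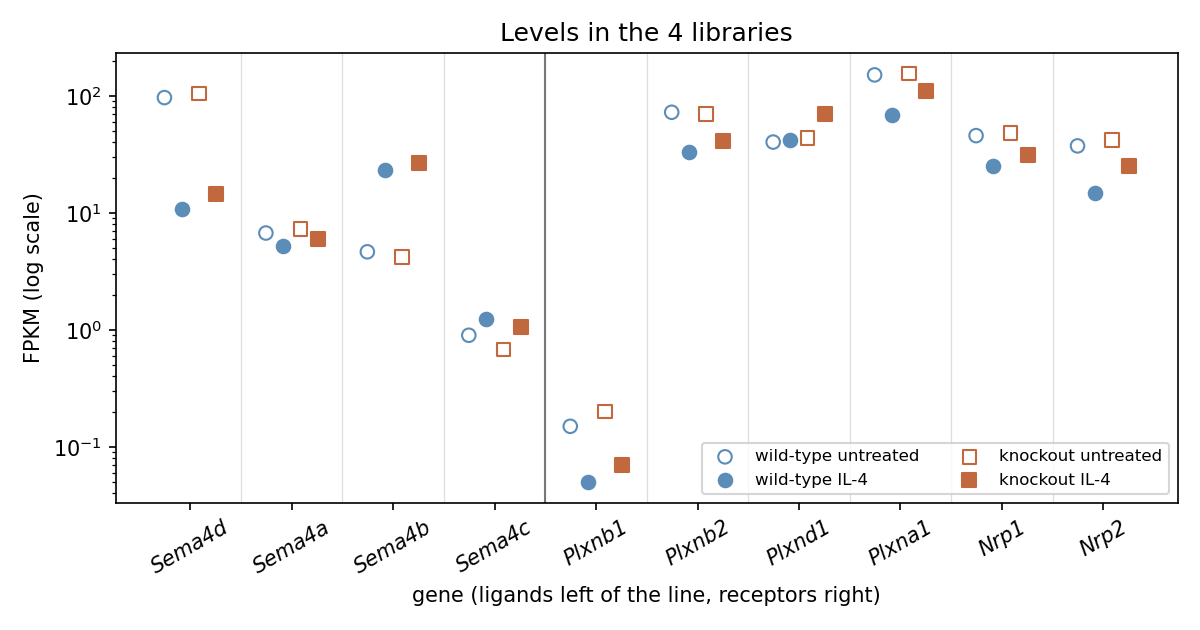
FPKM (log scale) of the 10 genes in each of the 4 libraries, wild-type as circles and knockout as squares, open without and filled with IL-4. Sema4d drops from about the level of the abundant receptors (96.7 and 105 FPKM) to 10.8 and 14.4 FPKM with IL-4, while Sema4b climbs from 4.65 and 4.18 to 23.3 and 26.9 FPKM.

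The other class 4 semaphorins were then compared with Sema4d. Sema4b (gene ID 20352, chromosome 7 from 80186870 to 80226646, plus strand) went the opposite way. It was listed at 4.65 FPKM in untreated WT cells and 23.3 FPKM after IL-4, and at 4.18 and 26.9 FPKM in knockout cells. Both IL-4 libraries lay above both untreated ones, and the log2 ratios were 2.30 (95% counting interval, 2.08 to 2.51) and 2.66 (2.43 to 2.88), or 4.92-fold and 6.30-fold. Of the 10532 genes, 0.874% lay higher than Sema4b in WT cells and 0.684% in knockout cells. Its expected reads, 183.51 to 1179.34 per library, were not whole, as RSEM gives where reads are divided among genes.

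Sema4a (gene ID 20351, chromosome 3 from 88435959 to 88461182), which is known for costimulating T cells, was listed at 6.73 and 5.22 FPKM in WT cells before and after IL-4 and at 7.28 and 6.04 FPKM in knockout cells. Its log2 ratios of -0.36 (-0.63 to -0.09) and -0.27 (-0.53 to -0.0040) were in the direction of Sema4d but within 1.5-fold. Sema4c (gene ID 20353, chromosome 1 from 36548639 to 36560699), best known from the nervous system, was listed at 0.90, 1.23, 0.68 and 1.06 FPKM in WT cells without and with IL-4 and then in knockout cells likewise. Its mean was below the minimum of 1 FPKM, it rested on 29 to 53 reads, and both of its IL-4 intervals held 0. The remaining members of the class, Sema4f and Sema4g, reached at most 0.14 FPKM.

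The mix of class 4 semaphorin RNA therefore differed between treatments. On FPKM, which corrects for transcript length, the class summed to 109 FPKM in untreated WT cells and 40.5 FPKM after IL-4, and to 117 and 48.5 FPKM in knockout cells. Sema4d made up 88.7% of the sum in untreated WT cells and 89.5% in untreated knockout cells, but 26.5% and 29.7% after IL-4. Sema4b made up 4.26% and 3.56% without IL-4 and 57.4% and 55.4% with it. The level of Sema4d was 20.8 and 25.1 times that of Sema4b in untreated WT and knockout cells, whereas after IL-4 Sema4b was 2.16 and 1.86 times as high as Sema4d.

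**Figure D2:**
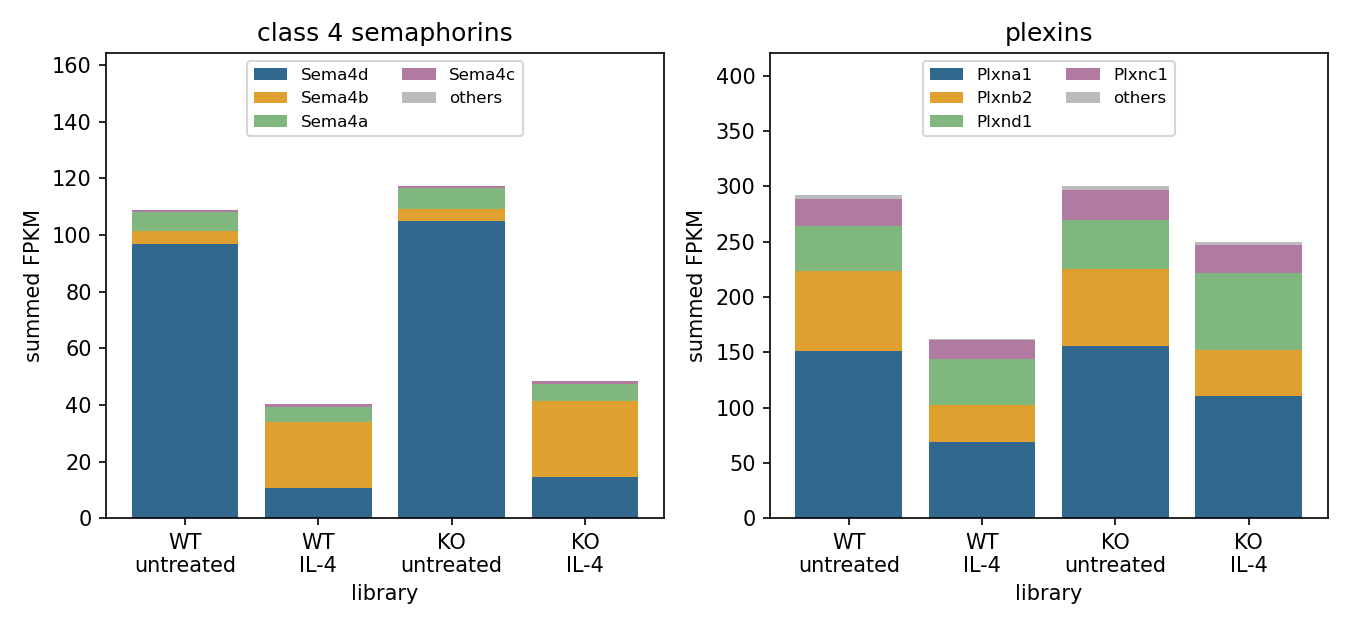
Summed FPKM of the class 4 semaphorins (left) and of all plexins (right) in the 4 libraries (WT, wild-type, and KO, knockout), with each bar divided by gene. Sema4d fills 88.7% and 89.5% of the untreated semaphorin bars and 26.5% and 29.7% of the IL-4 bars, where Sema4b takes the largest part.

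Promoter sequence was looked at as a feature that the choice of genes did not use. A RefSeq table of GRCm38.p6 held 17 windows of 300 bases (250 before and 50 after a transcript start) for 9 of the 10 genes. Plxna1 had no entry. The bases before the start are printed below for Sema4d and Sema4b, which had the largest IL-4 ratios in opposite directions, for Plxnb2, a receptor of class 4 semaphorins, and for Plxnd1, the receptor whose IL-4 ratio had the opposite sign to the others. They read 5′ to 3′ on the gene's strand and stop before the first annotated exon base of the gene. Capitals mark CG dinucleotides. The Sema4d window (chr13:51739447-51739696, minus strand) lies inside the gene, 54227 bases from the start of the counted transcript. The others are chr7:80186620-80186840 (Sema4b, plus strand), chr15:89180789-89181038 (Plxnb2, minus strand) and chr6:115995006-115995255 (Plxnd1, minus strand).
Sema4d: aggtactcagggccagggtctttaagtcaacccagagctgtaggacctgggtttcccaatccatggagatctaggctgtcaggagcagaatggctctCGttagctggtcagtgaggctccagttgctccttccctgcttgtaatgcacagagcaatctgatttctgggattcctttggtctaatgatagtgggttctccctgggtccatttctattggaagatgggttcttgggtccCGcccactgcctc
Sema4b: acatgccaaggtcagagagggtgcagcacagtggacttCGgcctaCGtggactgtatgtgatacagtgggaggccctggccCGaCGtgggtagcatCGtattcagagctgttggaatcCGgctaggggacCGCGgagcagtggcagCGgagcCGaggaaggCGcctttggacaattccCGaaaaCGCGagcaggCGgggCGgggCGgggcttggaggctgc
Plxnb2: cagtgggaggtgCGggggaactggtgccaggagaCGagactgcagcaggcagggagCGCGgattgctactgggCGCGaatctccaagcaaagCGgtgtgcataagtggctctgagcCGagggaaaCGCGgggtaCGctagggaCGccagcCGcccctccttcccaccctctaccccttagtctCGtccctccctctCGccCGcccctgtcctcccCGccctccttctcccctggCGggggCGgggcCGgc
Plxnd1: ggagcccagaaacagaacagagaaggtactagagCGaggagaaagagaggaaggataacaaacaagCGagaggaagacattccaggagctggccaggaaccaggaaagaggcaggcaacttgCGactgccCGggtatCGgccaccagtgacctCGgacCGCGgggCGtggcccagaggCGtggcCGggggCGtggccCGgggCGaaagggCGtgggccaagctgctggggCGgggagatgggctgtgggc
The Sema4d windows held few CG dinucleotides, as do many windows in the genome. Its 3 windows of 300 bases, all 36990 or more bases from the counted start, had 3, 3 and 2. The 4 windows of Sema4a had 7, 14, 5 and 4, while the 2 windows of Sema4b had 26 and 28. The 2 of Plxnb2 had 15 and 27 and that of Plxnd1 had 23. Those of Sema4c had 30 and 19, and those of Plxnb1, Nrp1 and Nrp2 had 36, 14 and 37. Of all 32851 windows, 31.4% held no more than 3, and the median was 7. The STAT motifs TTCNNNNGAA and TTCNNNGAA, both palindromic and so read on both strands at once, were found in none of the 17 windows. They occurred in 6.95% and 8.30% of all windows. A missing match says only that these letters are not in these windows.

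Next, the receptors were examined. Plxna1 (gene ID 18844, chromosome 6 from 89316313 to 89362613), which pairs with neuropilins and, in myeloid cells, with Trem2 and Tyrobp, was the most abundant member. It was listed at 151 FPKM in untreated WT cells and 68.7 FPKM after IL-4, and at 156 and 111 FPKM in knockout cells. Both IL-4 libraries lay below both untreated ones, but the knockout kept more. The log2 ratios were -1.14 (95% counting interval, -1.18 to -1.10) in WT cells and -0.49 (-0.53 to -0.46) in knockout cells, the latter within 1.5-fold. At its transcript length of 9045 bases the length trend alone amounted to -0.48 in the WT pair and -0.13 in the knockout pair. With the trend removed the ratios were -0.65 and -0.36.

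Plxnb2 (gene ID 140570, chromosome 15 from 89155546 to 89182018) was the abundant plexin-B. Its levels were 72.5 and 33.4 FPKM in WT cells before and after IL-4, and 70.0 and 41.1 FPKM in knockout cells. The log2 ratios of -1.12 (-1.18 to -1.05) and -0.77 (-0.83 to -0.70) kept their direction and stayed past 1.5-fold with the trend removed, at -0.78 and -0.69. Plxnb1 (gene ID 235611, chromosome 9 from 109093849 to 109119915), the high-affinity receptor of Sema4d in other cell types, was near the floor. It was listed at 0.15, 0.05, 0.20 and 0.07 FPKM in WT cells without and with IL-4 and then in knockout cells likewise, on 5 to 19.71 expected reads, and both of its IL-4 intervals held 0. A change of Plxnb1 was not detectable at this depth. The level of Plxnb2 was 350 to 668 times that of Plxnb1 in each library.

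Plxnd1 (gene ID 67784, chromosome 6 from 115954811 to 115995339), known as a receptor of Sema3e, did not go down with Sema4d in either genotype. It was listed at 40.3 FPKM in untreated WT cells and 41.9 FPKM after IL-4, and at 43.6 and 70.0 FPKM in knockout cells. The knockout IL-4 library stood above the other 3, which lay close together. The log2 ratio was 0.05 (-0.02 to 0.12) in WT cells, an interval that held 0, and 0.68 (0.62 to 0.74) in knockout cells, past 1.5-fold higher. With the trend removed the values were 0.42 and 0.77, so that the flat WT value depended on the length trend. The 6 stromal and mesothelial markers summed to 32.4 and 25.7 FPKM in WT cells before and after IL-4. In knockout cells the sum was 16.2 and 34.8 FPKM, and it too was higher with IL-4. That rise came mostly from Col1a1 (4.81 to 15.4 FPKM) and Col1a2 (5.53 to 12.75 FPKM). Col3a1 and Msln were also higher in the knockout pair, but Pdgfra (2.38 to 2.17 FPKM) and Upk3b (0.58 to 0.13 FPKM) were lower. The part of such cells in the result was not tested.

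Both neuropilins went down. Nrp1 (gene ID 18186, chromosome 8 from 128358591 to 128505476) was listed at 45.8 and 25.2 FPKM in WT cells before and after IL-4, and at 48.1 and 31.2 FPKM in knockout cells. Its log2 ratios were -0.86 (-0.94 to -0.77) and -0.62 (-0.70 to -0.54). Nrp2 (gene ID 18187, chromosome 1 from 62703317 to 62818692) was listed at 37.4 and 14.9 FPKM in WT cells and at 41.8 and 25.2 FPKM in knockout cells, with log2 ratios of -1.32 (-1.43 to -1.21) and -0.73 (-0.81 to -0.64). For each neuropilin the IL-4 libraries lay below the untreated ones. With the trend removed Nrp1 came to -0.56 in both genotypes, just within 1.5-fold, and Nrp2 to -1.02 and -0.66. The summed FPKM of 4 markers of endothelium, a cell type rich in neuropilins and plexin-D1, was also lower with IL-4, mostly through Kdr. The sums were 3.33 and 1.37 FPKM in WT cells and 2.92 and 1.67 FPKM in knockout cells. Kdr went from 2.80 to 1.06 FPKM and from 2.58 to 1.17 FPKM. Cdh5 stayed at 0.11 FPKM in WT cells and 0.04 FPKM in knockout cells, and Emcn was at 0. Tie1 went from 0.42 to 0.20 FPKM in WT cells but from 0.30 to 0.46 FPKM in knockout cells. The part of endothelial cells in the result was not tested.

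**Figure D3:**
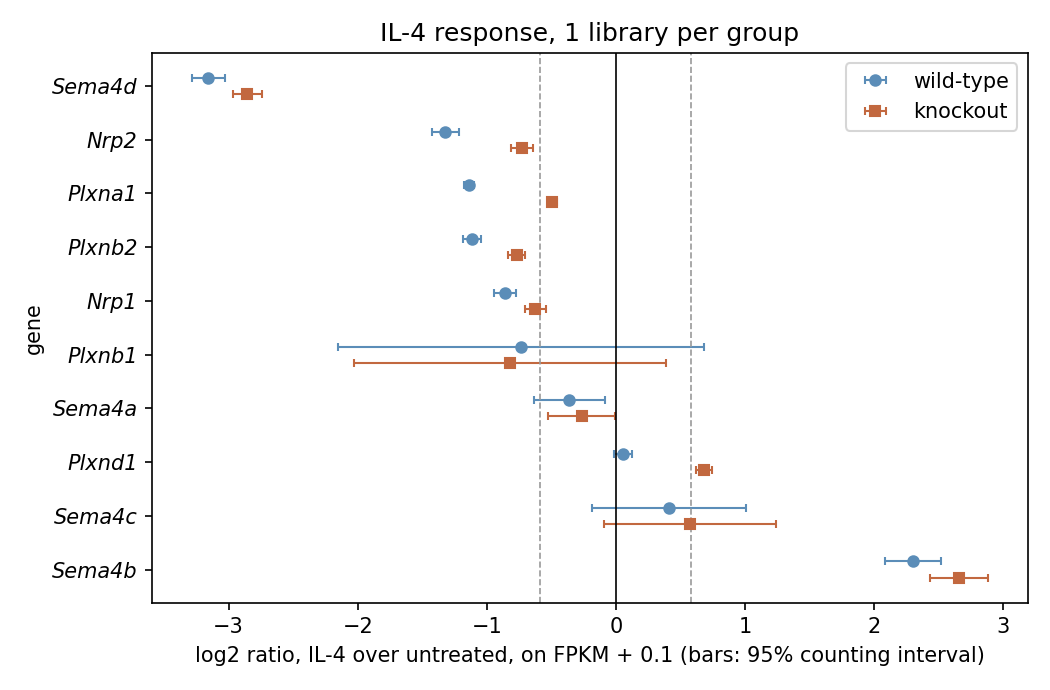
Log2 ratio of IL-4 over untreated on FPKM + 0.1 for the 10 genes, wild-type as circles and knockout as squares, with bars for 95% counting intervals and dashed lines at 1.5-fold. Sema4d (-3.16 and -2.86) and Sema4b (2.30 and 2.66) lie at the ends, and the receptors apart from Plxnd1 lie below 0, Plxnb1 with wide intervals.

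Of these members, 8 of the 10 averaged 1 FPKM or more. In the wild-type 5 of the 8 were past 1.5-fold lower with IL-4 (Sema4d, Plxna1, Plxnb2, Nrp1 and Nrp2) and 1 was higher (Sema4b), where 10.5% and 6.96% of the 10532 genes were. In the knockout 4 were lower (Sema4d, Plxnb2, Nrp1 and Nrp2) and 2 were higher (Sema4b and Plxnd1), where 6.36% and 7.34% of all genes were. The 4 genes lower in knockout cells were all lower in WT cells too. Because the IL-4 comparison itself chose these genes, nothing is read from these counts. Over the 8 genes the log2 ratio had a median of -0.99 in WT cells and -0.56 in knockout cells, against -0.0075 and 0.0076 over all genes. With the length trend removed the medians of the 8 were -0.61 and -0.46.

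Whether loss of Trim24 altered these genes was assessed next. The genotype comparison did not choose them, but it uses the same libraries as the IL-4 ratios that did, and earlier results were known. Without IL-4 none of the 8 genes was past 1.5-fold in either direction, where 2.05% of all genes were lower and 2.16% higher in knockout cells. The log2 ratios of knockout to wild-type ran from -0.15 for Sema4b to 0.16 for Nrp2. With IL-4, 3 of the 8 were past 1.5-fold higher in knockout cells and none was lower, where 4.98% of all genes were higher and 1.78% lower. These were Nrp2 at 0.75 (95% counting interval, 0.64 to 0.87), Plxnd1 at 0.74 (0.68 to 0.80) and Plxna1 at 0.69 (0.64 to 0.73). Sema4d had a ratio of 0.42 (0.26 to 0.58), or 1.34-fold. All 3 genes have transcripts of over 5348 bases, the longest eighth of genes, in which the median ratio was 0.34. With the trend removed they came to 0.49, 0.42 and 0.26, so that none of the 8 was past 1.5-fold, and Plxnb2 came from 0.30 to 0.0015. The WT IL-4 library that carries this trend is part of every one of these values.

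**Figure D4:**
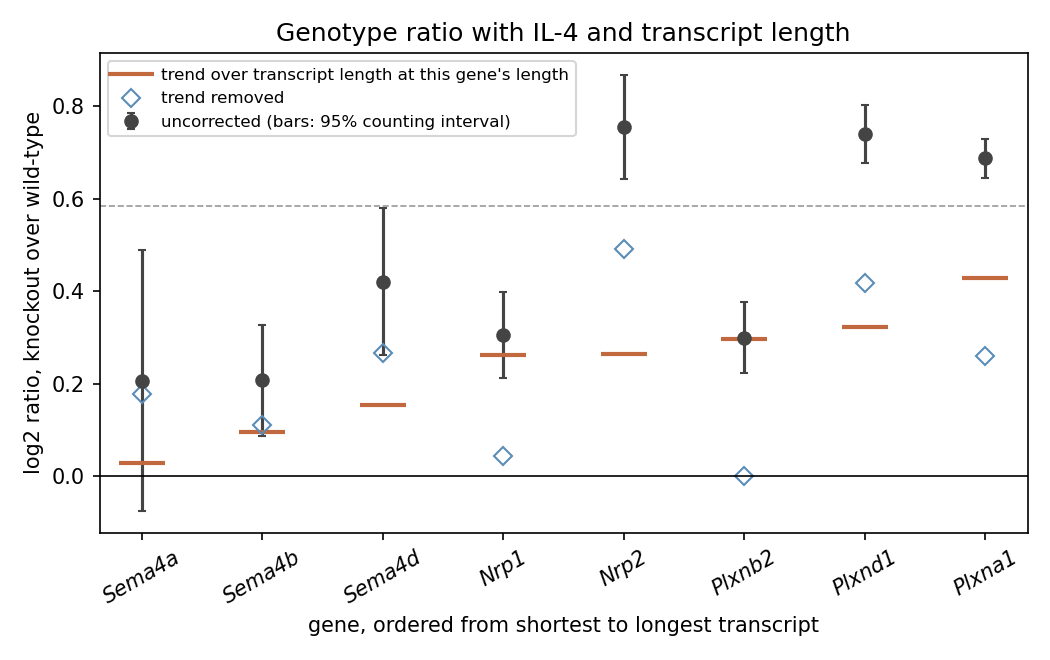
Log2 ratio of knockout to wild-type with IL-4 on FPKM + 0.1 (circles, bars for 95% counting intervals) for the 8 genes that averaged 1 FPKM or more, ordered by transcript length, with the trend at that length (dashes), the ratio after its removal (diamonds) and a dashed line at 1.5-fold. Nrp2, Plxnd1 and Plxna1 pass the line uncorrected and lie at 0.49, 0.42 and 0.26 once the trend is removed.

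All 4 libraries then entered 1 additive model (treatment plus genotype), which assumes the same genotype effect in both treatments. It left 1 residual degree of freedom, which reflects how far the genotype ratio differed between treatments and not a spread of replicates. Untreated and with IL-4 the log2 ratio was 0.16 and 0.75 for Nrp2, 0.11 and 0.74 for Plxnd1 and 0.04 and 0.69 for Plxna1. The SEs and p-values below therefore measure no spread between mice. In edgeR's quasi-likelihood test, Benjamini-Hochberg adjusted over 11791 genes, 196 genes (1.66%) had a genotype effect, and none of the 10 genes was among them. At an unadjusted p under 0.05 there were 4, namely Nrp2, Plxnd1, Plxna1 and Sema4d, where 14.2% of all genes were. DESeq2 on the same design also called none, with 2 members and 2.77% of all genes at an unadjusted p under 0.05. The largest estimate, 0.52 ± 0.46 (SE) for Plxnb1, was also the least precise. The smallest p was that of Nrp2, with the knockout over the wild-type at a log2 of 0.47 ± 0.12 (SE; edgeR adjusted p = 0.070), higher in knockout cells in both treatments. Plxnd1 came to 0.43 ± 0.12 (edgeR adjusted p = 0.097), Plxna1 to 0.36 ± 0.12 (0.17) and Sema4d to 0.26 ± 0.10 (0.24), each likewise higher in both. For Plxna1 this depended on the length trend, without which its untreated ratio was -0.03. With the length trend entered as an offset, Nrp2 (0.33, edgeR adjusted p = 0.00036) and Plxnd1 (0.25, 0.009) passed the threshold, among 624 of 11791 genes. Plxna1 and Sema4d came to 0.12 and 0.18 with that offset and were not called. With RLE size factors Nrp2 and Plxnd1 passed too (0.014 and 0.025), among 330 of 11791 genes. Neither passed with no filter on low counts (edgeR adjusted p = 0.53 and 0.56) or with DESeq2.

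The IL-4 responses of the genotypes were set side by side as a difference of log2 ratios, knockout minus wild-type. This has no residual degree of freedom and no test. For Sema4d it was 0.30 (95% counting interval, 0.13 to 0.47), a shallower fall in knockout cells, and 0.16 with the trend removed, when its interval held 0. In 7 of the 8 genes that averaged 1 FPKM or more the interval lay above 0, where it did in 15.7% of the 10532 genes and lay below 0 in 8.58%. These included Plxna1 (0.65), Plxnd1 (0.63) and Nrp2 (0.60). With the trend removed 3 of the 7 remained, at 0.36 for Nrp2, 0.35 for Plxnd1 and 0.29 for Plxna1, where 8.1% of all genes lay above 0 and 8.85% below. Counting intervals of abundant genes are narrow, and the IL-4 ratios that enter the difference are those that chose the genes.

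The rest of the family was mostly silent. Of 16 other semaphorins, Sema6b alone had a mean of at least 1 FPKM, with 2.92 and 3.27 FPKM in WT cells before and after IL-4 and 2.85 and 4.26 FPKM in knockout cells. Of 5 other plexins, Plxna2 and Plxnc1 did. Plxna2 was past 1.5-fold lower with IL-4 in both genotypes, from 1.95 to 0.67 FPKM in WT cells and from 2.06 to 1.06 FPKM in knockout cells. Plxnc1, the receptor of Sema7a, was listed at 24.8 and 17.2 FPKM in WT cells and 27.7 and 25.6 FPKM in knockout cells. Its log2 ratios of -0.53 and -0.11 stayed within 1.5-fold, and were -0.16 and -0.02 with the length trend removed. All plexins together summed to 292 FPKM in untreated WT cells and 162 FPKM after IL-4, and to 300 and 249 FPKM in knockout cells. These sums carry the length trend, and none was computed with it removed. At the lengths of Plxnb2 and Plxna1 the trend was -0.335 and -0.48 in the WT pair but -0.08 and -0.13 in the knockout pair. The share of Plxnd1 in that sum was 13.8% and 25.8% in WT cells and 14.5% and 28.1% in knockout cells, and that of Plxna1 51.8% and 42.3%, and 51.8% and 44.4%.

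Partners of Sema4d were taken from a list of 7 genes, of which 6 had a mean of at least 1 FPKM. Cd72, the lectin-like receptor through which Sema4d acts on B cells, was the one past 1.5-fold in both genotypes. It was listed at 8.86 and 17.9 FPKM in WT cells before and after IL-4 and at 10.7 and 21.3 FPKM in knockout cells, opposite in direction to its ligand. The proteases that can shed Sema4d were within 1.5-fold, with Adam17 at -0.29 and -0.22 and Mmp14 at -0.50 and -0.19 on the log2 scale. Ptprc, which encodes CD45, was at -0.37 and -0.28. Mst1r was past 1.5-fold lower in WT cells and Met higher in knockout cells, both named after their values were seen.

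Of 26 genes that act below plexins 23 averaged 1 FPKM or more. With IL-4, 2 of the 23 were past 1.5-fold lower and 1 was higher in WT cells, where 10.5% and 6.96% of all genes were, and 1 was lower and 1 higher in knockout cells, where 6.36% and 7.34% were. Fyn, a Src-family kinase, was higher with IL-4 in both genotypes, at 8.22 and 28.9 FPKM in WT cells and 8.22 and 30.1 FPKM in knockout cells. Dpysl2, a collapsin response mediator, was lower in both, at 4.64 and 2.37 FPKM and at 4.32 and 2.64 FPKM. Mical2, named after its value was seen, was lower in WT cells at a log2 ratio of -0.97. The GTPases Rhoa (log2 ratios of 0.02 and -0.02) and Rac1 (-0.0035 and -0.04) stayed near 0, and the sign of both in WT cells changed with the scaling (Rac1 0.03 with TMM factors, Rhoa -0.04 with the length trend removed). Arhgef11, the guanine exchange factor that joins plexin-B to RhoA, had log2 ratios of -0.39 and -0.22. The Plxna1 partners Trem2 (0.02 and -0.15) and Tyrobp (-0.31 and -0.34) stayed within 1.5-fold as well. In the knockout Rnd3, a small GTPase that binds plexins, was past 1.5-fold lower than in WT cells in both treatments. It was listed at 1.37 against 2.49 FPKM untreated and 1.28 against 2.09 FPKM with IL-4, on 40 to 78 reads. The counting intervals of its log2 ratio ran from -1.35 to -0.28 untreated and from -1.23 to -0.10 with IL-4. It was 1 of the 23 genes in each treatment, where 2.05% and 1.78% of all genes were lower. The additive model did not call it (edgeR adjusted p = 0.11).

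Of 7 genes on the VEGF side of the neuropilins, 5 averaged 1 FPKM or more. In each genotype 2 were past 1.5-fold lower and 2 higher with IL-4. Of all genes 10.5% were lower and 6.96% higher in WT cells, and 6.36% and 7.34% in knockout cells. Vegfb, the most abundant of the VEGF ligands here, stayed within 1.5-fold. It was listed at 66.3 and 55.8 FPKM in WT cells before and after IL-4 and at 59.3 and 56.1 FPKM in knockout cells. Vegfa, another VEGF ligand, was past 1.5-fold lower with IL-4, from 16.3 to 7.77 FPKM in WT cells and from 24.1 to 11.2 FPKM in knockout cells. Kdr, the receptor that uses Nrp1 as a co-receptor and also an endothelial marker, was lower too, from 2.80 to 1.06 FPKM and from 2.58 to 1.17 FPKM. Vegfc was higher, from 1.45 to 2.89 FPKM and from 0.97 to 1.88 FPKM, on 20 to 61 reads. Flt1, which encodes VEGFR1, was listed at 0.11 and 3.09 FPKM in WT cells and 0.44 and 10.1 FPKM in knockout cells. It was past 1.5-fold higher with IL-4 in both genotypes and in knockout cells in both treatments.

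Genes with a pattern most like that of Sema4d were sought among 7457 genes by the Euclidean distance between log2(FPKM + 0.1) values over the 4 libraries, each centred on its own mean. The nearest 5 were Arhgap22 (distance 0.80), Dio2 (0.93), Clec12a (1.03), Tlr13 (1.05) and Kcnj2 (1.15). Arhgap22 was listed at 23.2, 4.50, 26.0 and 6.05 FPKM in WT cells without and with IL-4 and then in knockout cells likewise. Tlr13, a receptor for bacterial ribosomal RNA, was listed at 93.0, 22.4, 87.5 and 21.9 FPKM in that order, the closest to Sema4d in level. Among the members, Nrp2 came 96th, Plxnb2 114th, Plxna1 165th and Nrp1 202nd of the 7457. Sema4a came 1035th, Plxnd1 6535th and Sema4b 7416th. The distance includes the IL-4 fall that chose Sema4d, so these ranks largely restate the IL-4 ratios above.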

How the data were processed

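Total RNA of 4 libraries was sequenced on an Illumina HiSeq. Per the labels and the study's methods, the authors used Bowtie for mapping to GRCm38 (mm10) and RSEM for quantification (versions not given in the sources used here). The deposited expected counts are RSEM's estimated reads per gene; 22.2% to 22.8% were not whole, and they were rounded for count tests. The deposited FPKM values, with 2 decimals, are fragments scaled by the authors to transcript length and library depth. The deposited transcript length (other unit, bases) is an abundance-weighted average. Unlisted genes were set to 0. Whether counting used strand is not given in the sources used here. Of 16403 gene IDs, 16365 matched a RefSeq symbol (GRCm38.p6).

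Ratios were taken on log2(FPKM + 0.1), which understates changes of low genes, with 95% intervals from counting error (counts + 0.5). A fold of 1.5 was applied to genes averaging at least 1 FPKM. The length trend was a lowess curve (fraction 0.3, transcripts of at least 200 bases) of each log2 ratio over log2 length. The genotype effect was fitted with edgeR 4.0.16 (TMM, filterByExpr, treatment and genotype), with DESeq2 1.42.0 as an alternative. Both the ratio with the trend and the fit were tested on simulated data. The members and lists were chosen with earlier results of these data known. Named besides the members were list genes past 1.5-fold in one direction in both genotypes or both treatments, or with a mean of at least 10 FPKM (a selection is given), the 5 genes most like Sema4d at a minimum of 5 FPKM, and Trim24, Lyz2 and Arg1. Alternatives were pseudocounts of 0.01 and 1, CPM, TMM scaling, removal of the length trend, a fold of 2, no minimum, RLE size factors, no filter and DESeq2. Markers of neutrophils, NK cells, dendritic cells, eosinophils and mast cells, and stroma summed to 5.15 to 8.86, 0 to 0.24, 0.71 to 1.09, 2.61 to 5.83 and 16.2 to 34.8 FPKM.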

Additional observations from a re-analysis of the deposited data

Results flagged for a closer look

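In 2 genes the sign of the knockout to wild-type ratio differed between treatments. For Sema4b the log2 ratio was -0.15 in untreated cells and 0.21 with IL-4. For Plxnb2 it was -0.05 without and 0.30 with IL-4, and 0.0015 with IL-4 once the length trend was removed. Each value compares 1 library with 1 library, and the difference between the treatments was not tested.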

How the results depend on the processing

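Pseudocounts of 0.01 and 1, CPM and TMM scaling moved none of the member counts past 1.5-fold by more than 1.5 times and reversed no ratio that was past 1.5-fold. TMM scaling moved the median of all genes for IL-4 in WT cells from -0.0075 to 0.03. A fold of 2 left 1 member lower and 1 higher with IL-4 in the knockout, and 0 higher in the knockout with IL-4. With no minimum on FPKM, 6 members were lower with IL-4 in WT cells and 5 in knockout cells, against 5 and 4 with it. The gene added in both was Plxnb1. Removal of the length trend left 4 members lower with IL-4 in WT cells and 3 in knockout cells. It left 0 members higher in the knockout with IL-4 and brought the Sema4d response in the wild-type to -2.99. It also left 3 members whose difference of responses had an interval without 0. The genotype effect was called in 330 of 11791 genes with RLE size factors and 624 of 11791 with the length trend as an offset. It was called in 24 of 16371 genes with no filter on low counts and 65 of 13197 with DESeq2. Of the members it was called in 2 with RLE size factors and 2 with the offset. No paired analysis was possible because each group holds 1 library and the labels give no replicate numbers, and leaving out a library of the additive fit leaves no residual degree of freedom. Depth limits statements on Plxnb1 and Sema4c.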
